A study of Mus musculus with 9 samples.

Results

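The 40 genes described here handle the carbon of glucose or sense oxygen. They comprise 4 transporters of glucose and lactate, 3 hexokinases, the enzymes and regulators of upper and lower glycolysis, the carriers and enzymes that bring pyruvate into mitochondria, 4 enzymes of the pentose phosphate pathway, and 5 genes of hypoxia sensing. They were taken by name from a list of 40 symbols. The count table held them in 41 of its 56748 rows, because Aldoa appeared under 2 identifiers, and all 41 rows passed the filter on low counts in each of the 3 comparisons.

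The data were bulk RNA-seq of bone marrow hematopoietic stem cells from mice, with 3 libraries in each of 3 groups. Young HSCs (yHSC) came from mice of 6 to 10 weeks, and early-aged HSCs (paHSC) from mice of 14 to 16 months. The paHSCs were sorted by surface Selp (P-selectin, an adhesion receptor of platelets and endothelium) into Selp_low and Selp_high cells. By the study's methods, the mice were female C57BL/6, and the cells carried the SLAM surface phenotype (Lin- Sca1+ c-Kit+ CD48- CD150+). The comparisons ask how HSCs of the early-aged mice differ from young ones in each Selp fraction, and how the fractions differ from each other.

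Glycolysis splits glucose into pyruvate in the cytosol, and pyruvate is then either reduced to lactate by lactate dehydrogenase or carried into mitochondria and oxidised by the pyruvate dehydrogenase (PDH) complex. PDH kinases switch that complex off. The pentose phosphate pathway branches off at glucose-6-phosphate and yields NADPH and ribose. The transcription factor HIF-1, stabilised at low oxygen, induces many glycolytic genes together with Pdk1, and HSCs in their marrow niche are known for a glycolytic metabolism with high pyruvate dehydrogenase kinase activity.

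Library size ranged from 24866975 to 35375310 counts. Levels are CPM, counts scaled to a common library size, after adjustment by TMM, which corrects library totals for a few very abundant genes. Except where counts are named, levels are compared between genes after division by the deposited gene length in kilobases (FPKM). That length need not be the length of the transcript, so an order of genes per length depends on it. The libraries were not alike in composition. Markers of neutrophils, 10 genes such as S100a8 and Ngp, summed to 213233 CPM in Selp_low replicate 3, against 547 to 64897 CPM in the other 8 libraries, and no gene of that list was at 0 in any library. Markers of B and plasma cells summed to 268576 CPM in Selp_low replicate 2, against 478 to 11993 CPM elsewhere, and Pax5 was at 0 in Selp_high replicate 3. T and NK markers summed to 374 to 1116 CPM in Selp_low, above the 64.3 to 156 CPM of the other groups, with Cd8a, Cd4 or Gzma at 0 in some libraries of replicates 2 and 3. The 10 genes most abundant in each library took 44.8% of counts in Selp_low replicate 2 and 20.9% in replicate 3, and their TMM factors were 0.545 and 0.785, against 1.05 to 1.22 elsewhere. Erythroid markers summed to 254 to 3091 CPM. HSC markers were detected in every library, with sums of 1299 to 2742 CPM in yHSC, 1001 to 1689 in Selp_low and 2441 to 3406 in Selp_high. Selp itself was at 20.5 to 30.0 CPM in yHSC, at 109, 29.3 and 93.3 CPM in the Selp_low replicates, and at 652, 265 and 264 CPM in the Selp_high replicates. In bulk samples, fewer cells of a type and less RNA per cell cannot be told apart.

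Because HIF-1 binds short sites built on the letters ACGTG or GCGTG, the 250 bases before each gene's start in RefSeq (GRCm38.p6) were searched for both on either strand. Of the 40 genes, 39 had an entry, in 55 windows. Either motif was in 78.2% of those windows, against 38.6% of all 32851 promoter windows, with ACGTG in 40% against 16.6% and GCGTG in 54.5% against 28.2%. The median GC content was 61.6% in the windows of these genes and 52.4% in all windows. A match is only a match of letters, and the data hold no binding measurement. The windows of 4 genes at the pyruvate branch point are shown 5′ to 3′ with the matched letters in capitals (CACGT and CACGC are the motifs on the opposite strand). These 4 were picked from the genes whose libraries did not overlap between groups.
Ldha, chr7:46845554-46845803, plus strand: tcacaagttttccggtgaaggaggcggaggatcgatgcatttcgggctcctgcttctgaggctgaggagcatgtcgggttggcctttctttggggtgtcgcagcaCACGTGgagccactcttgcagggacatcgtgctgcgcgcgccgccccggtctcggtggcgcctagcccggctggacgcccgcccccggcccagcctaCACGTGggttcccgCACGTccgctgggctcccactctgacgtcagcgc
Pdk1, chr2:71872974-71873223, plus strand: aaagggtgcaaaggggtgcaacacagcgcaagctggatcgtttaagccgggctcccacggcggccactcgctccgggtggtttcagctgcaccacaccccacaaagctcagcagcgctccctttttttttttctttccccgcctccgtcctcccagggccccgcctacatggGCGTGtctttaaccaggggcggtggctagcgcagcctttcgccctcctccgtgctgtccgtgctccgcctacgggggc
Mpc1, chr17:8283537-8283786, plus strand: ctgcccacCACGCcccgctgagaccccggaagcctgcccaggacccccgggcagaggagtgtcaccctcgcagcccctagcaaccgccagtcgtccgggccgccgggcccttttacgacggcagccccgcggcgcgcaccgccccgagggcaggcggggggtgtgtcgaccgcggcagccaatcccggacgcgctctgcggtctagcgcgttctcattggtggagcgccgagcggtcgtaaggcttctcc
Mpc2, chr1:165461010-165461259, plus strand: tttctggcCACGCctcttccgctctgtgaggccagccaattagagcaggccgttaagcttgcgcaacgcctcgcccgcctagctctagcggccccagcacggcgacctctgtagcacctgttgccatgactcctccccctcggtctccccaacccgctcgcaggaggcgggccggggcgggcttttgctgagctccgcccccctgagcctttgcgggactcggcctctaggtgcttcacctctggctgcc
The Ldha window shown held 5 matches, counting each of its palindromic CACGTG sites on both strands, and the windows shown of Pdk1, Mpc1 and Mpc2 held 1 each. Ldha, Pdk1 and Mpc1 each had 2 windows, and these numbers leave out matches in the window not shown.

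All 41 rows had a mean FPKM of at least 1 over the 9 libraries. Per length, Ldha was the most abundant with a mean of 402 FPKM, followed by Aldoa at 265, Pkm at 255 and Eno1 at 195. Taldo1, the transaldolase of the pentose phosphate pathway, reached 168 FPKM. The lowest were the second Aldoa identifier at 1.58 FPKM, the phosphofructokinase regulator Pfkfb3 at 3.03 and Gapdh at 3.26. Gapdh catalyses the step between Tpi1 (157 FPKM) and Pgk1 (97.5 FPKM), and 3 pseudogene copies that carry its name held 1.7% to 24.4% of its own count. How reads shared with copies were counted is not given in the sources used here, so the Gapdh level is uncertain.

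The spread between libraries of a group was widest in Selp_low. The median coefficient of variation over the 41 rows was 48.5% in Selp_low, 25.2% in yHSC and 30.0% in Selp_high. Selp_low replicate 3 was the highest of the 9 libraries in 19 rows, and Selp_low replicate 2 the lowest in 20 rows. The same quantities over all genes are not given here, so this spread is not shown to be particular to these genes. The summed counts of the 41 rows took 0.322% of Selp_low replicate 2 and 1.30% of Selp_high replicate 1, the extremes of the series.

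**Figure D1:**
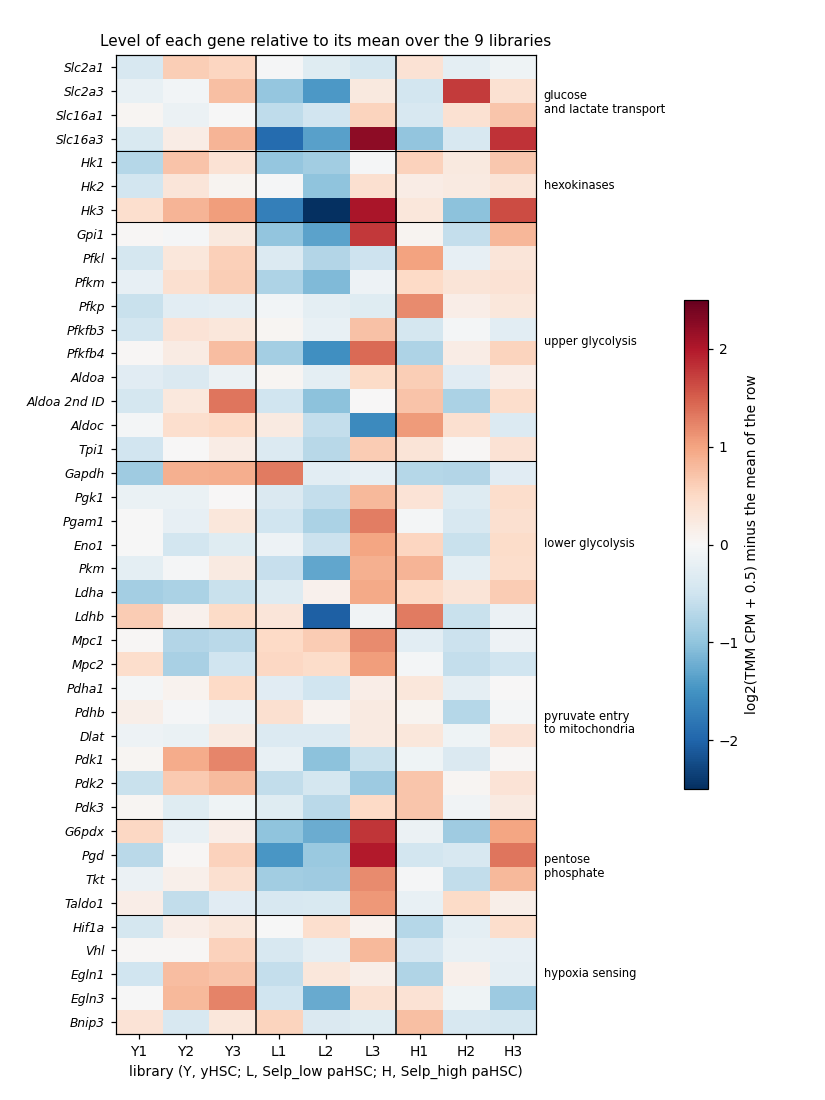
Each row is 1 gene and each column 1 library, and colour gives log2(TMM CPM + 0.5) minus the row's mean over the 9 libraries, saturating at 2.5 in either direction. Selp_low replicate 3 (L3) is the highest library in 19 of the 41 rows and replicate 2 (L2) the lowest in 20, while Ldha is low in all 3 yHSC libraries and Pdk1 lower in all paHSC libraries than in yHSC.

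Across the 3 comparisons, edgeR's quasi-likelihood test called none of the 41 rows at an adjusted p of at most 0.05 with a log2 fold change of at least 1 in size. The share of all genes it called was 0% between the Selp fractions, 0.165% for Selp_high over yHSC and 0% for Selp_low over yHSC. At an unadjusted p under 0.05 it marked 7, 3 and 5 rows in these comparisons, or 17.1%, 7.32% and 12.2%, beside 12.5%, 7.59% and 11.3% of all genes tested. DESeq2, the tool the study used, called 0, 1 and 0 rows at the same thresholds, where its share of all genes was 2.21%, 2.99% and 2.89%. The member that DESeq2 called was Ldha.

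Between Selp_high and Selp_low, 5 rows lay higher without overlap of the libraries (12.2%, against 10.3% of all genes) and 4 lay lower (9.76%, against 10.6%). For Selp_high over yHSC, 2 rows lay higher and 2 lower, beside 8.52% and 5.28% of all genes. For Selp_low over yHSC, 3 rows lay higher and 1 lower, beside 9.59% and 6.74% of all genes. The members' shares were near or below the background in all 6 counts. Leaving out a library changed some of them. For Selp_high over yHSC the counts reached 9 higher without Selp_high replicate 2 (14% of all genes) and 7 lower without yHSC replicate 1 (16.1%). For Selp_low over yHSC they reached 5 higher without Selp_low replicate 2 (12.1%). With library totals in place of TMM scaling, 9 rows lay higher and 0 lower in Selp_high than in Selp_low, beside 18.2% and 2.72% of all genes. With the same totals, 0 lay higher and 8 lower in Selp_low than in yHSC, beside 1.65% and 17.7% of all genes.

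The median log2 fold change of the 41 rows was 0.10 for Selp_high over Selp_low, with 25 positive and 16 negative, beside a median of -0.11 for all genes. It was 0.072 for Selp_high over yHSC (21 positive, 20 negative) and -0.0043 for Selp_low over yHSC (20 positive, 21 negative), beside medians of -0.033 and 0.083 for all genes. The first and the last of these medians rested on Selp_low replicate 3. Without that library the median was 0.695 for Selp_high over Selp_low with 33 of 41 rows positive (all genes, -0.064), and -0.54 for Selp_low over yHSC with 9 of 41 positive (all genes, 0.023). The rows higher in Selp_high than in Selp_low without overlap then numbered 24, beside 17.2% of all genes, and the rows lower in Selp_low than in yHSC numbered 21, beside 15.1% of all genes. DESeq2 without it called Hk1, Hk3 and Pfkm higher in Selp_high than in Selp_low, where it called 5.43% of all genes. It also called 8 rows lower in Selp_low than in yHSC, where it called 8.43% of all genes.

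**Figure D2:**
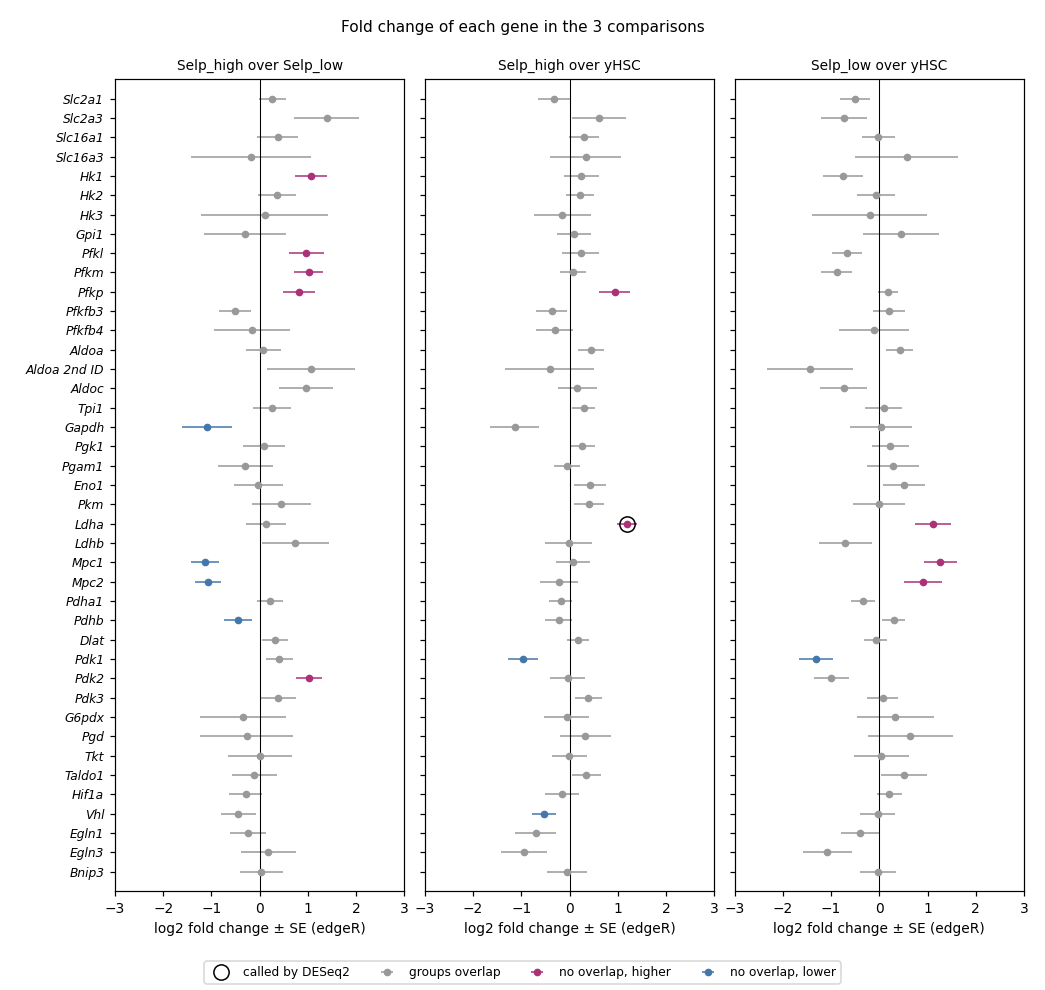
Points give the log2 fold change of each gene from edgeR and bars its standard error, in the 3 comparisons (3 libraries a group); colour marks genes whose libraries do not overlap between the groups, and a ring marks a DESeq2 call. Ldha carries the single ring, at 1.19 for Selp_high over yHSC, and the widest bars are on genes such as Hk3 and Slc16a3 whose Selp_low libraries lie far apart.

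The clearest difference from young cells was in Ldha, which encodes the A subunit of lactate dehydrogenase, the form that favours reduction of pyruvate to lactate. Its levels in the replicates of yHSC were 671, 703 and 831 CPM, in Selp_low 978, 1317 and 2359 CPM, and in Selp_high 1718, 1517 and 1891 CPM. Every paHSC library lay above every yHSC library, and the Selp fractions overlapped. Ldha rose in Selp_high over yHSC by 1.19 ± 0.21 (log2, SE), a 2.28-fold difference of group means as fitted, with an adjusted p of 9.6e-05 in DESeq2 and 0.119 in edgeR. The DESeq2 call was lost when yHSC replicate 2 was left out. For Selp_low over yHSC the log2 fold change was 1.11 ± 0.38 (adjusted p 0.252 in DESeq2 and 0.360 in edgeR), and with library totals in place of TMM scaling these 2 groups overlapped.

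Ldhb, the B subunit that favours the reverse reaction, did not follow Ldha. It was at 165 to 238 CPM in yHSC, 36.8 to 190 in Selp_low and 105 to 380 in Selp_high, with overlap in every comparison. Per length, Ldha made up 62.9% ± 5.0 of the lactate dehydrogenase total in yHSC, 84.6% ± 12.2 in Selp_low and 80.7% ± 10.8 in Selp_high (SD, n = 3). The log2 ratio of Ldha to Ldhb within a library averaged 0.77 in yHSC, 2.77 in Selp_low and 2.19 in Selp_high. Both paHSC groups lay wholly above yHSC in this ratio, though Selp_high replicate 1, at 1.10, was close to yHSC replicate 2, at 1.01. The difference of Selp_low from yHSC was 2.01, and it was 2.75 without Selp_low replicate 1 and 1.35 without replicate 2. The difference of Selp_high from yHSC was 1.42, and it was 1.97 without Selp_high replicate 1 and 1.13 without replicate 2. With all libraries, the exact permutation p was 0.1 for each fraction over yHSC, the smallest that 3 against 3 libraries allows. It was 0.55 after Benjamini-Hochberg adjustment over 33 tests.

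Pdk1, a PDH kinase and known HIF-1 target, lay the other way. Its levels were 79.7, 146 and 178 CPM in yHSC, 67.4, 37.4 and 51.9 in Selp_low, and 71.5, 59.1 and 78.6 in Selp_high. All 6 paHSC libraries lay below all 3 yHSC libraries, although Selp_high replicate 3 came within about 1 CPM of yHSC replicate 1. The log2 fold change was -0.97 ± 0.31 for Selp_high and -1.31 ± 0.35 for Selp_low over yHSC. Neither passed the test, with adjusted p of 0.437 and 0.332 in edgeR and 0.128 and 0.108 in DESeq2. Without yHSC replicate 1, DESeq2 called Pdk1 lower in both fractions (adjusted p 0.00439 and 0.00975), in comparisons where it called 4.71% and 9.14% of all genes. Without that library it also called Ldha and Gapdh for Selp_high over yHSC, and Mpc1, Mpc2 and Pdk2 for Selp_low over yHSC.

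Pdk2, the second PDH kinase, separated the Selp fractions instead. It was at 30.9, 71.6 and 78.9 CPM in yHSC, 29.6, 33.2 and 24.1 in Selp_low, and 73.5, 47.2 and 57.6 in Selp_high. Its log2 fold change for Selp_high over Selp_low was 1.03 ± 0.27, with an adjusted p of 0.338 in edgeR. Pdk3, the most abundant of the 3 kinases per length, stayed between 80.9 and 207 CPM with overlap in every comparison. Pdk1 made up 20.4% ± 5.4 of the summed kinases per length in yHSC, 11% ± 3.6 in Selp_low and 10.2% ± 1.8 in Selp_high. By raw counts, without division by length, Pdk1 took 41.8% and Pdk3 39.6% in yHSC. The ratio of Pdk1 to Pdk3 was lower in Selp_high than in yHSC by 1.28 on the log2 scale without overlap (exact permutation p of 0.1, adjusted 0.55).

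The mitochondrial pyruvate carrier is built from Mpc1 and Mpc2, and both were highest in Selp_low. Mpc1 was at 22.6, 13.2 and 13.7 CPM in yHSC, 31.7, 34.5 and 51.0 in Selp_low, and 18.3, 15.1 and 20.4 in Selp_high. Mpc2 was at 94.1, 39.5 and 48.9 CPM in yHSC, 99.9, 95.1 and 143 in Selp_low, and 67.2, 45.6 and 49.3 in Selp_high. For both genes all 3 Selp_low libraries lay above the 6 others, by only 1 CPM for Mpc2 against yHSC replicate 1. For Selp_high over Selp_low the log2 fold change was -1.13 ± 0.29 for Mpc1 and -1.07 ± 0.28 for Mpc2, each with an adjusted p of 0.338 in edgeR. For Selp_low over yHSC it was 1.27 ± 0.34 for Mpc1 and 0.91 ± 0.40 for Mpc2, with adjusted p of 0.332 and 0.458. These separations depended on the scaling, since TMM raises Selp_low relative to library totals. With RLE factors both genes still separated the Selp fractions, but Mpc2 no longer separated Selp_low from yHSC. With library totals only, the median of all genes moved by 0.42 for Selp_high over Selp_low and by -0.46 for Selp_low over yHSC, and neither carrier gene separated Selp_low from another group. A pseudogene, Mpc1-ps, held 129% to 182% of the Mpc1 count in the same libraries, at a group mean of 25.4 CPM in yHSC, 52.1 in Selp_low and 29.1 in Selp_high. How the counting divided reads between them is not given in the sources used here, so the Mpc1 level is uncertain.

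**Figure D3:**
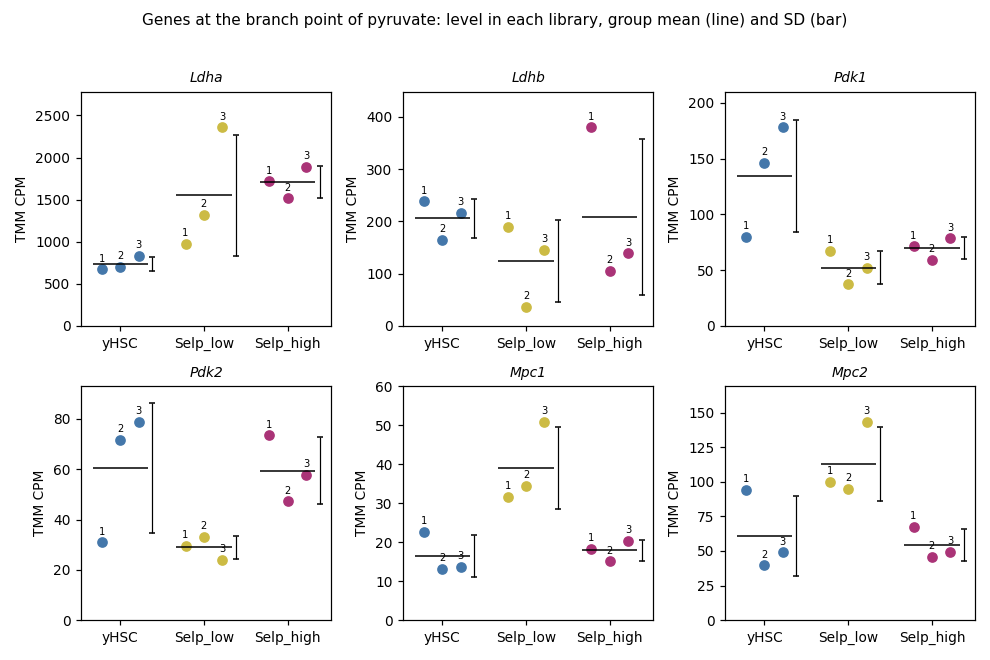
TMM CPM of 6 genes at the pyruvate branch point in each of the 9 libraries, numbered by replicate, with the group mean (line) and SD (bar, n = 3). Every paHSC point of Ldha is above, and every paHSC point of Pdk1 below, the 3 yHSC points, and the 3 Selp_low points of Mpc1 and Mpc2 are above the 6 others.

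The PDH complex itself varied less. Pdha1, of its E1 alpha subunit, was at 67.5 to 136 CPM over all libraries, and Dlat, its E2 acetyltransferase, at 61.6 to 99.9 CPM. Pdhb, the E1 beta subunit, was at 249, 220 and 205 CPM in yHSC, 299, 240 and 266 in Selp_low, and 237, 138 and 217 in Selp_high. It lay lower in Selp_high than in Selp_low without overlap, at a log2 fold change of -0.45 ± 0.29 (adjusted p 0.561 in edgeR), a direction that turned with library totals only.

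In the first steps of glycolysis, Hk1 and all 3 phosphofructokinase genes lay higher in Selp_high than in Selp_low without overlap. Hk1, the widely expressed hexokinase, was at 188, 503 and 394 CPM in yHSC, 157, 168 and 300 in Selp_low, and 456, 365 and 488 in Selp_high. Its log2 fold change was 1.06 ± 0.33 (adjusted p 0.338 in edgeR, 0.236 in DESeq2). The yHSC libraries overlapped both fractions.

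Pfkl, the liver-type phosphofructokinase, was at 195, 149 and 173 CPM in Selp_low and 498, 214 and 306 in Selp_high, a log2 fold change of 0.97 ± 0.36 (adjusted p 0.360). Pfkm, the muscle type, was at 26.2, 20.8 and 41.5 CPM in Selp_low and 64.4, 56.5 and 58.3 in Selp_high, a log2 fold change of 1.01 ± 0.31 (adjusted p 0.338). In yHSC, Pfkl was at 181 to 375 CPM and Pfkm at 39.1 to 69.6 CPM, overlapping both fractions.

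Pfkp, the platelet type, was at 67.9, 83.6 and 85.9 CPM in yHSC, 95, 84.5 and 81.2 in Selp_low, and 229, 112 and 122 in Selp_high. It was the only one of the 3 that separated Selp_high from both other groups. The log2 fold change was 0.82 ± 0.33 over Selp_low (adjusted p 0.383) and 0.93 ± 0.33 over yHSC (adjusted p 0.506, both edgeR). Without Selp_high replicate 1 it was 0.42 over Selp_low and 0.53 over yHSC. Markers of megakaryocytes and platelets summed to 131 to 203 CPM in yHSC and 187 to 2232 in Selp_low, with Gp1bb at 0 in all yHSC libraries. In Selp_high replicates 1, 2 and 3 they summed to 1384, 7575 and 4027 CPM. Within that group Pfkp was highest in replicate 1 and lowest in replicate 2. The part of these markers in the Pfkp level was not tested.

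Pfkl remained the most abundant phosphofructokinase per length in all 9 libraries, with 56.0% to 67.4% of the family. Pfkp took 9.4% ± 2.0 in yHSC, 15.9% ± 2.2 in Selp_low and 14.2% ± 1.5 in Selp_high (SD, n = 3). By raw counts Pfkp took 19.5%, 30.2% and 27.7% in the same order. The log2 ratio of Pfkl to Pfkp was lower than in yHSC by 0.66 in Selp_high and by 0.81 in Selp_low, in both without overlap (exact permutation p of 0.1, adjusted 0.55). Such ratios do not depend on the scaling of a library.

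The other hexokinases behaved differently from Hk1. Hk3, a hexokinase best known from myeloid cells, was at 123, 166 and 190 CPM in yHSC, 27.9, 7.44 and 380 in Selp_low, and 113, 45.1 and 287 in Selp_high. Its highest and lowest libraries, 51.0-fold apart, were both Selp_low. Hk2, the insulin- and hypoxia-inducible form, stayed between 11.1 and 30.2 CPM. The share of Hk1 in the hexokinase total per length ranged from 24.5% in Selp_low replicate 3 to 83.5% in Selp_low replicate 2.

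**Figure D4:**
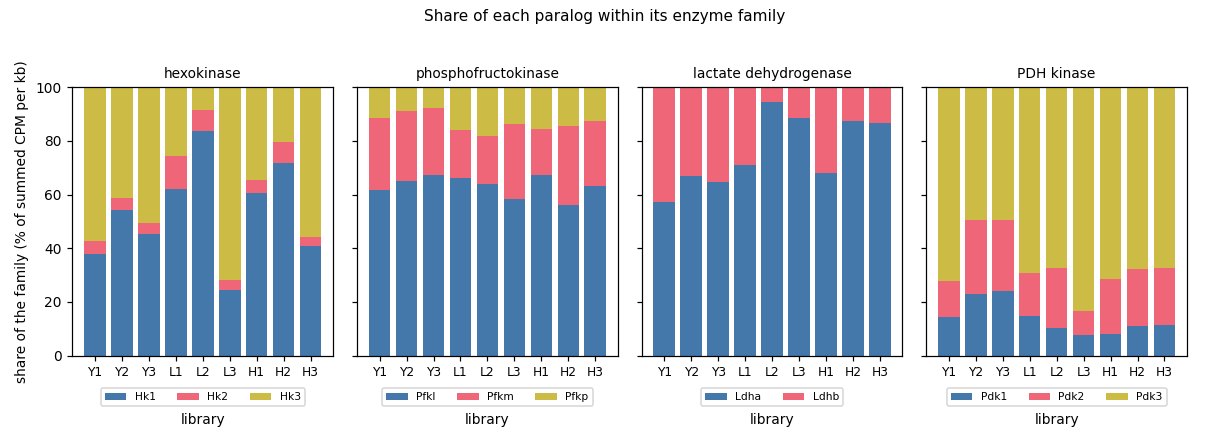
Stacked bars give the share of each paralog in the length-scaled level of its family, in percent, for each of the 9 libraries (Y, yHSC; L, Selp_low; H, Selp_high). Ldha takes a larger share in all 6 paHSC libraries than in yHSC, Pfkp likewise, and the hexokinase shares differ most between the Selp_low libraries.

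When the replicate number was used as a block in DESeq2, 7 rows were called between the Selp fractions, beside 9.17% of all genes. Hk1, Hk3, Pfkm, Aldoc and Pdk2 rose in Selp_high and Mpc1 and Mpc2 fell, with adjusted p from 0.00400 (Hk1) to 0.0493 (Hk3). The log2 fold change of Hk3 was 1.43 in that fit and 0.10 ± 1.32 in edgeR without the block. Libraries with the same number correlated at 0.178 to 0.303 across the fractions, and those with different numbers at -0.245 to 0.0252. Selp_high replicate 1 correlated at 0.449 with yHSC replicate 2, from mice of another age, so a pairing is not established. With the block, edgeR called none of these rows. Among the other genes of the pathways listed at the end, DESeq2 with the block called 3 glycolysis genes, 2 transporters, 1 PDH gene and 3 hypoxia response genes between the Selp fractions, against 2, 0, 0 and 0 without it.

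Most genes from the aldolases to pyruvate kinase overlapped between all groups. Aldoa was at 585 to 1156 CPM over all libraries, and its second identifier, with 4 counts in its lowest library, at 0.264 to 3.39 CPM. Aldoc was at 21.9 to 32.6 CPM in yHSC, 7.23 to 26.7 in Selp_low and 17.8 to 48.0 in Selp_high. The log2 ratio of Aldoa to Aldoc was higher in Selp_low than in yHSC by 1.34 without overlap (exact permutation p of 0.1, adjusted 0.55), and by 0.66 when Selp_low replicate 3 was left out.

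Tpi1, Pgk1, Pgam1, Eno1 and the pyruvate kinase Pkm overlapped in every comparison, with their highest and lowest values mostly in Selp_low. Pkm was at 972 to 1346 CPM in yHSC, 471 to 2144 in Selp_low and 974 to 2095 in Selp_high. Eno1 was at 711 to 977 CPM in yHSC, 677 to 1932 in Selp_low and 663 to 1419 in Selp_high. Over all libraries, Tpi1 ranged from 257 to 645 CPM, Pgk1 from 138 to 368 and Pgam1 from 95.2 to 402, each with both extremes in Selp_low. Gapdh was at 5.96, 21.8 and 22.2 CPM in yHSC, 29.0, 9.49 and 9.97 in Selp_low, and 6.85, 6.72 and 9.36 in Selp_high. It lay lower in Selp_high than in Selp_low without overlap, by a margin of about 0.1 CPM, at -1.09 ± 0.52 (adjusted p 0.447 in edgeR). Without Selp_low replicate 1 the log2 fold change was -0.34.

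Pfkfb3 and Pfkfb4 make fructose-2,6-bisphosphate, the activator of phosphofructokinase. They were at 16 to 36.9 CPM and 8.83 to 71.4 CPM over all libraries, with both maxima in Selp_low replicate 3.

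Of the glucose transporters, Slc2a3 (GLUT3) exceeded Slc2a1 (GLUT1) per length by group mean, at 29.6, 17.4 and 45.4 FPKM against 14.5, 9.81 and 11.9 FPKM in yHSC, Selp_low and Selp_high. In Selp_low replicate 2 both were nearly equal, with Slc2a1 at 50.3% of their sum. Slc2a3 was at 132, 615 and 239 CPM in Selp_high, so its highest group mean came from replicate 2. The lactate exporter Slc16a3 (MCT4) ranged from 3.51 to 71.6 CPM, both within Selp_low, and Slc16a1 (MCT1) from 57.4 to 144 CPM.

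The pentose phosphate enzymes also differed widely inside Selp_low. G6pdx, the rate-limiting dehydrogenase that opens the pathway, was at 288, 177 and 227 CPM in yHSC, 99.4, 84.7 and 690 in Selp_low, and 182, 108 and 397 in Selp_high. Pgd, the second dehydrogenase, was at 88.0, 143 and 210 CPM in yHSC, 51.2, 74.2 and 555 in Selp_low, and 102, 106 and 355 in Selp_high. Tkt, the transketolase, was at 333 to 492 CPM in yHSC, 200 to 845 in Selp_low and 241 to 649 in Selp_high. In all 3 genes replicate 3 of Selp_low was the highest library and replicate 3 of Selp_high the next, while Selp_low replicates 1 and 2 were the lowest of all 9.

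Taldo1 was also highest in Selp_low replicate 3, at 727 CPM, but next in Selp_high replicate 2, at 477 CPM. None of the 4 genes passed a test, and their median log2 fold change was -0.19, 0.16 and 0.42 for Selp_high over Selp_low, Selp_high over yHSC and Selp_low over yHSC. Without Selp_low replicate 3, DESeq2 called G6pdx lower in Selp_low than in yHSC (-1.33, adjusted p 0.0143), together with Gpi1, Slc2a3, Hk3, Pfkm, Pfkfb4, Slc16a3 and Egln3.

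In all, 11 rows were highest in Selp_low replicate 3 and next in Selp_high replicate 3, namely G6pdx, Pgd, Tkt, Slc16a3, Hk2, Hk3, Gpi1, Tpi1, Pgk1, Pgam1 and Ldha. Gpi1, the isomerase of the second glycolytic step, was at 1596 CPM in the first and 835 CPM in the other, against 186 to 553 CPM elsewhere. Neutrophil markers in these 2 libraries summed to 213233 and 42642 CPM. In yHSC replicate 1, the second highest in those markers at 64897 CPM, G6pdx was the highest of its group while Pgd, Tkt, Hk3 and Slc16a3 were the lowest of theirs. A list of 10 proliferation genes summed to 3207 CPM in Selp_low replicate 3 and 2488 CPM in Selp_high replicate 3, against 846 to 1763 CPM elsewhere. The part of either list in these levels was not tested.

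**Figure D5:**
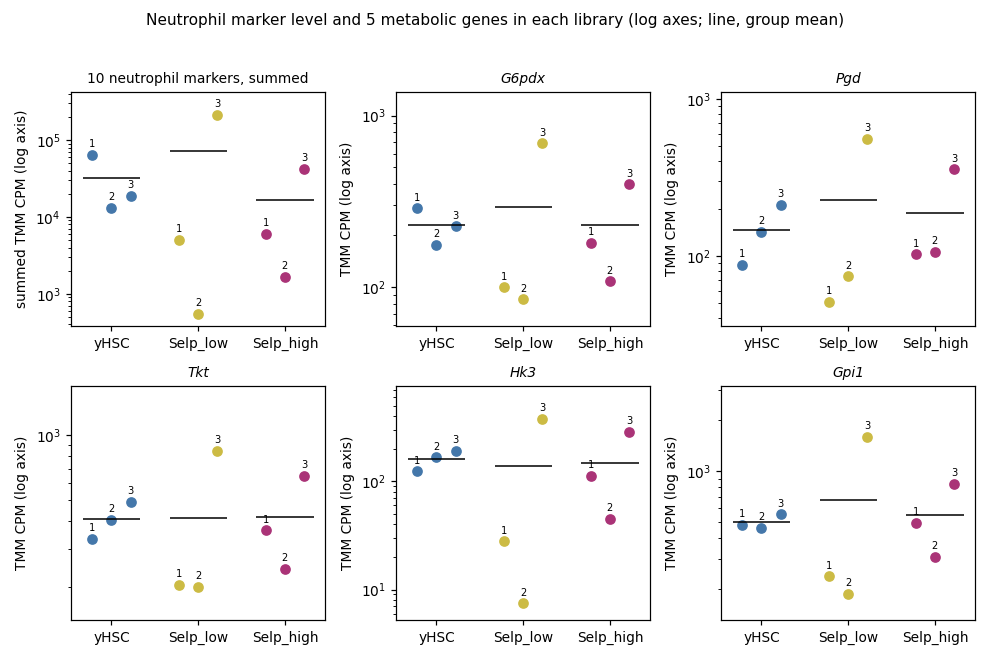
Summed TMM CPM of 10 neutrophil markers and TMM CPM of 5 metabolic genes, on log axes, in each library (numbered by replicate) with the group mean as a line. Selp_low replicate 3 is the highest point in all 6 panels, and Selp_high replicate 3 is the next in each of the 5 gene panels but not in the marker panel, where yHSC replicate 1 at 64897 CPM lies between them.

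Among the genes of hypoxia sensing, no row passed a test. Hif1a, the oxygen-regulated subunit of HIF-1, was at 41.9 to 69.9 CPM in yHSC, 56.6 to 77.1 in Selp_low and 34.6 to 77.9 in Selp_high. Vhl, which marks HIF-1 alpha for degradation, was at 45.5, 45.1 and 66.7 CPM in yHSC, 33.6, 37.7 and 78.2 in Selp_low, and 32.9, 38.9 and 38.5 in Selp_high. It lay lower in Selp_high than in yHSC without overlap (log2 fold change -0.53 ± 0.25, adjusted p 0.731 in edgeR).

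The prolyl hydroxylases Egln1 and Egln3, which tag HIF-1 alpha when oxygen is present, were at 14.3 to 42.1 CPM and 3.82 to 23.9 CPM. The highest library of each was in yHSC. Bnip3, a mitophagy receptor and HIF-1 target, was at 19.1 to 44.3 CPM and overlapped in every comparison. All 5 genes had a negative log2 fold change for Selp_high over yHSC, from -0.94 to -0.054, with a median of -0.53. Of all genes, 47.8% were positive in that comparison. For Selp_low over yHSC, 4 of the 5 were negative, with a median of -0.038.

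Other genes of these pathways were counted from lists of fixed symbols. Of 21 other glycolysis genes, 20, 19 and 20 were tested for Selp_high over Selp_low, Selp_high over yHSC and Selp_low over yHSC, with median log2 fold changes of 0.49, 0.25 and -0.015. DESeq2 called 2, 1 and 0 of them, all higher in Selp_high. Its share of all genes was 2.21%, 2.99% and 2.89% in these comparisons, which also holds for the lists that follow. Ldhd, a mitochondrial D-lactate dehydrogenase, was at 10.8, 17.4 and 17.2 CPM in yHSC, 10.4, 2.57 and 9.78 in Selp_low, and 45.6, 26.8 and 46.8 in Selp_high. It rose in Selp_high by 2.38 over Selp_low and by 1.35 over yHSC in DESeq2 (adjusted p 0.0131 and 0.0124), and all Selp_high libraries lay above the 6 others. Eno2, the neuronal enolase, rose in Selp_high over Selp_low by 1.89 (adjusted p 0.0290), from 1.25 to 1.77 CPM to 4.53 to 7.34 CPM.

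Of 12 other transporters of glucose and lactate, 8, 10 and 8 were tested with medians of 0.38, 0.29 and -0.065. Slc2a10 fell in Selp_low below yHSC by 1.60 on the log2 scale in DESeq2 (adjusted p 0.0325), from 9.17 to 15.1 CPM to 2.5 to 5.01 CPM, and the call was lost with the replicate block (adjusted p 0.0557). All 7 other PDH genes were tested, with medians of 0.19, -0.046 and -0.20 and no call by either tool. The 9 other pentose phosphate genes had medians of -0.34, 0.14 and 0.47. Their single DESeq2 call was Tktl1, higher in Selp_low than in yHSC, at 14, 3.49 and 0.375 CPM against 0.745, 0.0927 and 0.0273 CPM with overlap.

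Of 26 other hypoxia response genes, 26, 25 and 26 were tested, with medians of -0.16, -0.15 and 0.051. DESeq2 called 1 higher and 1 lower for Selp_high over yHSC (2.99% of all genes), and 3 higher for Selp_low over yHSC (2.89% of all genes). Vegfa, the angiogenic growth factor, was at 20.1, 297 and 122 CPM in yHSC and 11.8, 13.4 and 31.2 in Selp_high, and fell by 3.00 on the log2 scale (DESeq2 adjusted p 0.00721) although yHSC replicate 1 lay within the Selp_high range. Cited2, which competes with HIF-1 alpha for its coactivators, was at 81.8, 91.3 and 154 CPM in yHSC and 274, 219 and 235 in Selp_high without overlap, and rose by 1.14 (adjusted p 0.0143). The 3 calls in Selp_low were Ankrd37, Adm and Stc2, none above 17.5 CPM in any library. With the replicate block DESeq2 called none of these 3, with adjusted p of 0.0581 for Ankrd37 and 0.115 for Adm and no adjusted p for Stc2. Of these, Stc2 alone lay without overlap, at 1.05 to 1.52 CPM in Selp_low against 0.135 to 0.185 CPM in yHSC. All 8 DESeq2 calls over yHSC among these other genes were lost without yHSC replicate 2, and each was also lost without another library. Adm was called in 1 of the 6 fits that left out a library. Over Selp_low, the calls of Ldhd and Eno2 were lost without Selp_high replicate 1. That of Ldhd was also lost without Selp_high replicate 3, and that of Eno2 without Selp_low replicate 2.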

How the data were processed

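Bulk RNA-seq of 9 sorted HSC libraries (3 yHSC, 3 Selp_low paHSC and 3 Selp_high paHSC, described by the study as biological replicates) was analysed from 1 table of raw read counts per gene deposited by the authors, with gene length as the deposited file gives it. The authors amplified cDNA with a SMARTer Ultra Low kit. Their processing notes name HISAT2 2.2.1, featureCounts 2.0.6, CASAVA 1.8, DESeq2 1.42.0 and the mouse build mm39, and the study trimmed reads with fastp. Which annotation was counted, whether strand was used and how multi-mapping reads were handled is not given in the sources used here, and each could move reads between a gene and its copies.

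Each pair of groups was fitted alone over all genes with edgeR 4.0.16 (quasi-likelihood test, TMM factors, filterByExpr by group, R 4.3.3), with Benjamini-Hochberg adjustment over all genes tested. A gene was called at an adjusted p of 0.05 or less and a log2 fold change of at least 1 in size. DESeq2 1.42.0 was run at the same thresholds as the study's own tool. Errors beside fold changes are standard errors of the edgeR fit, or of group percentages the SD over 3 libraries. Any 2 of the 3 comparisons share the libraries of 1 group. FPKM was TMM CPM divided by gene length in kilobases. Counting error was not small for the second Aldoa identifier, whose lowest count was 4 in 1 library. The lowest count of any other member was 58. Ratios of 11 paralog pairs (counts plus 0.5, divided by length) were compared by exact 2-sided permutation over libraries. Promoter windows came from RefSeq on GRCm38.p6, a different build from the count table, and were matched by symbol.

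The members and all lists were chosen with earlier results of these data known. All 40 members were named with levels, and a fold change with its error was given where a tool called the gene or the groups did not overlap. Genes of other lists were named where a tool called them (the rule also allowed the 3 most abundant of a list, which are not shown). Replicate numbers were checked for pairing: the deviations of same-numbered libraries correlated at 0.178, 0.277 and 0.303 between the Selp fractions, over the 0.1 set as the threshold, and at -0.417 to 0.0917 with yHSC. Selp_high and Selp_low libraries of different numbers correlated at -0.245 to 0.0252. Selp_high and yHSC libraries of different numbers, which come from mice of different ages, correlated at up to 0.449. This check therefore cannot establish that the numbers pair the Selp fractions, and no label says that they do. Alternatives were other scaling factors, filters and models, limma 3.58.1 voom with quality weights, the replicate block, 1 fit of all 9 libraries, and leaving out each library. The fitting steps were run on simulated counts. Recovery of the changes put in was required only at a low fixed spread between libraries, not at the spread estimated from these data. That check therefore does not give the power here. The number of per-sample columns left unused was 0.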

Additional observations from a re-analysis of the deposited data

How the results depend on the processing

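Precision was limited by 3 libraries a group and by the spread within Selp_low. The median log2 fold change of the members for Selp_high over Selp_low was 0.53 with voom quality weights and -0.036 to 0.695 leaving out 1 library (the highest without Selp_low replicate 3), and for Selp_low over yHSC -0.53 and -0.54 (without Selp_low replicate 3) to 0.23. The edgeR count of 0 called members became 7 for Selp_high over Selp_low in DESeq2 with the replicate block, 1 for Selp_high over yHSC in DESeq2, in voom and in DESeq2 with the replicate block, and 1 (Mpc1) for Selp_low over yHSC in voom. It was 0 under every other alternative, edgeR with the replicate block and each left-out library included. The DESeq2 counts ranged over left-out libraries from 0 to 3, 0 to 3 and 0 to 8 for the 3 comparisons in the order used above. Members without overlap numbered 9 higher and 0 lower for Selp_high over Selp_low with library totals only, and 0 higher and 8 lower for Selp_low over yHSC, where RLE factors gave 2 lower. Over left-out libraries the higher counts ranged from 5 to 24, 2 to 9 and 3 to 5, beside 11.8% to 17.2%, 9.97% to 14.4% and 11% to 26.4% of all genes. The lower counts ranged from 2 to 7 for Selp_high over yHSC (6.45% to 16.1% of all genes) and 1 to 21 for Selp_low over yHSC (7.49% to 21.6%). No direction reversed among the genes whose groups did not overlap, save Pdhb with library totals only. The cause of these shifts was not tested. The replicate block changed no other call of a member.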
